A study of Mus musculus with 6 samples.

Results

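Hox genes encode homeodomain transcription factors that give segments of the embryo their position along the head-to-tail axis. Mammals carry them in several clusters, in which the genes nearest the 3′ end are active earliest and reach furthest forward, while the genes at the 5′ end act last and in the most caudal tissue. Group 13 proteins at the 5′ end are associated with the end of axis elongation. The HoxB cluster is unusual in lacking the genes of groups 10 to 12, so that Hoxb9, of the thoracic groups, is followed by Hoxb13, and a long stretch of DNA lies between them.

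The genes described here are the 10 protein-coding members of this cluster, namely Hoxb1, Hoxb2, Hoxb3, Hoxb4, Hoxb5, Hoxb6, Hoxb7, Hoxb8, Hoxb9 and Hoxb13, taken by gene name from a table of read counts of 54134 genes. RNA was sequenced from the tailbuds of 6 mouse embryos at E10.5, each tailbud being all tissue caudal to the last somite, with 1 library per embryo. Wildtype libraries (n = 4) were compared with libraries from Cdx2P:Nr6a1 embryos (n = 2), in which regulatory elements of Cdx2 drive expression of the nuclear receptor Nr6a1, to ask what Nr6a1 does to gene expression when its activity is prolonged in the tailbud, past the stage at which it is normally cleared there. The transgenic embryos were transient, each arising from its own injected zygote, so that they are not a line with 1 shared integration of the transgene. All embryos were C57BL/6.

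The libraries held between 44073460 and 67183802 counts. Expression is given as CPM, a gene's count scaled to its library's total with the TMM adjustment, and levels of different genes are compared only as TPM, which also divides by exon length. edgeR's quasi-likelihood test was run on genes that exceeded both 10 counts and 2 CPM in 2 or more libraries, with called meaning a Benjamini-Hochberg adjusted p under 0.05. This left 12733 genes, among them 10 of the 10 HoxB genes. Nr6a1 itself was at 3.94, 5.16, 5.52 and 6.90 CPM in wildtype and at 23.2 and 33.8 CPM in Cdx2P:Nr6a1 libraries, in accordance with the labels (log2 fold change 2.41, SE 0.20, adjusted p = 0.00132, edgeR). The counts cannot separate transgene from endogenous Nr6a1. The tailbud markers were present in every library. Of the 5 head markers, Otx2 stayed below 0.1 CPM, while Emx2, which is also expressed outside the head, was at 9.25 to 12.3 CPM in wildtype and 10.4 and 13.5 CPM in Cdx2P:Nr6a1 libraries. En2 was below 1 CPM in every library except Cdx2P:Nr6a1 replicate 2, at 2.27 CPM. Since tissue was sequenced in bulk, fewer cells of a type and less RNA per cell cannot be told apart in any value that follows.

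Hoxb13 fell to 34.4% of its wildtype level in Cdx2P:Nr6a1 tailbuds, and it was the only HoxB gene called. Hoxb9 and Hoxb3 were slightly lower without passing the test, and the other 7 members had log2 fold changes between −0.18 and 0.09. No member was called higher. Of the 10 members, 1 was thus called lower, where 0.809% of all genes tested were called lower and 1.59% were called in either direction. The median log2 fold change of the members was −0.06, close to the median of all genes tested, −0.00071. Both Cdx2P:Nr6a1 libraries lay outside the range of the 4 wildtype libraries for 3 members (Hoxb13, Hoxb5 and Hoxb3, each of them below), a pattern shown by 18.5% of all genes tested. The plot of CPM by library shows the members in chromosomal order.

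**Figure D1:**
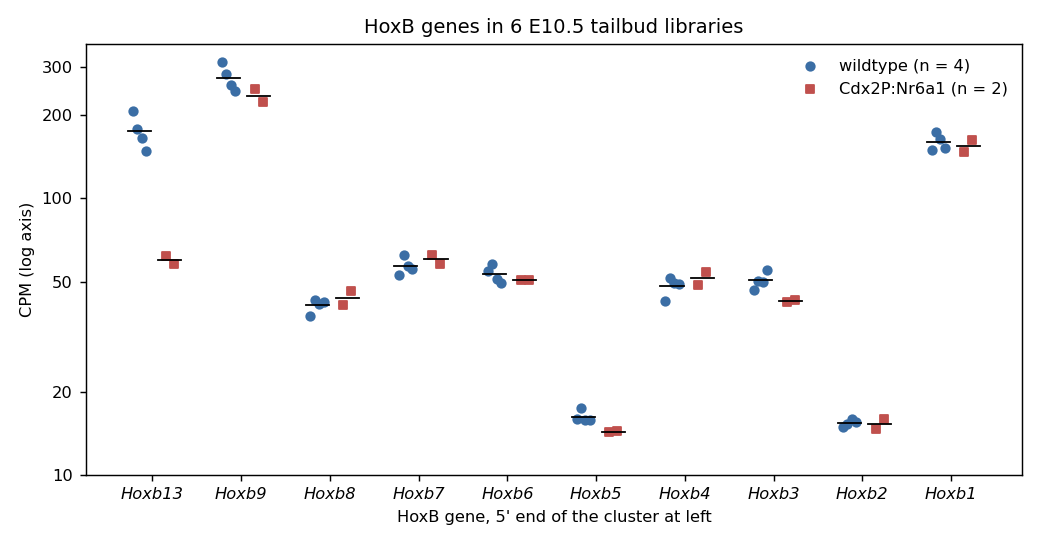
CPM of the 10 HoxB genes (log axis) in each wildtype (blue circles, n = 4) and Cdx2P:Nr6a1 (red squares, n = 2) library, with a line at each group mean and the genes in their order along the cluster. For Hoxb13 the Cdx2P:Nr6a1 libraries at 62.0 and 58.2 CPM sit far below the wildtype libraries at 149 to 207 CPM. For Hoxb3 and Hoxb5 they sit just below the wildtype libraries, and the groups overlap for the other genes.

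Hoxb13, whose loss in mice leaves an overgrown spinal cord and tail, lies on chromosome 11 from 96194316 to 96197447 on the plus strand of GRCm38. It was at 207, 178, 165 and 149 CPM in wildtype replicates 1 to 4 and at 62.0 and 58.2 CPM in the Cdx2P:Nr6a1 libraries. The highest transgenic library was well under the lowest wildtype library. Group means were 175 ± 24.7 (SD, n = 4) and 60.1 ± 2.73 CPM (SD, n = 2), a log2 fold change of −1.54 (SE 0.12, 95% confidence interval −1.81 to −1.27, adjusted p = 0.00121, edgeR's quasi-likelihood test). These values rest on between 2752 and 10114 counts per library. Wildtype replicate 3 and Cdx2P:Nr6a1 replicate 2 had high Y-chromosome expression, with summed Y-linked CPM of 240 and 203 against 29.6 to 41.7 in the others. Hoxb13 was at 165 and 58.2 CPM in that pair, and at 149 to 207 CPM in wildtype against 62.0 CPM among the other libraries. Since Hoxb13 is also expressed in hindgut, the gut endoderm markers are relevant here. Over all genes tested, 0.809% were called lower and 1.59% in either direction. Of the 8 gut endoderm markers, 0 were called lower and 1, the keratin gene Krt18, was called higher. Their summed CPM was 417 to 535 in wildtype and 537 to 618 in Cdx2P:Nr6a1 libraries, a sum made up mostly of the general epithelial genes Cdh1, Cldn6, Epcam, Krt8 and Krt18. The endoderm factors Foxa1 and Foxa2 and the signal Shh had log2 fold changes of −0.05, 0.29 and −0.07, and their groups overlapped. Of the 7 neural tube markers, 4 were tested and 2 of these rose in the same libraries, where 1.59% of all genes tested were called. Sox1 went from 0.90 to 1.41 CPM in wildtype to 2.93 and 5.10 CPM (log2 fold change 1.77, adjusted p = 0.0116, edgeR), and Sox3 from 4.26 to 5.86 CPM to 10.6 and 14.8 CPM (1.26, adjusted p = 0.00714). The other tested ones, Sox2 (log2 fold change 0.17, adjusted p = 0.653, edgeR) and Pax3 (−0.07), overlapped between the groups. Pax6, Olig2 and Nkx6-1 did not pass the filter. The part of gut or neural cell content in the Hoxb13 result was not tested.

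Hoxb9, which patterns the ribs together with its paralogues, stands next along the chromosome (96271457 to 96276595), with a gap of 74.0 kb between the genes. Its CPM was 311, 283, 257 and 245 in wildtype and 248 and 223 in Cdx2P:Nr6a1 libraries. The first transgenic library overlapped the wildtype range and the second lay below it, and the log2 fold change of −0.22 was not called (SE 0.09, 95% interval −0.43 to −0.01, adjusted p = 0.430, edgeR). Among the wildtype libraries, those with more Hoxb13 also had more Hoxb9. Their ratio was accordingly steadier than either gene, at 66.7, 63.0, 64.2 and 60.7 Hoxb13 counts per 100 Hoxb9 counts in wildtype, and at 25.0 and 26.1 in Cdx2P:Nr6a1 libraries. This ratio needs no scaling between libraries. Its log2 value differed by −1.32 between the groups (two-sided p = 0.0667 by exact permutation, which is the lowest that these group sizes allow). The ratio of Hoxb13 to each of the 9 other members was lower in both Cdx2P:Nr6a1 libraries than in every wildtype library, with differences from −1.29 (against Hoxb3) to −1.63 (against Hoxb4) on the log2 scale, each with an adjusted p of 0.0667 in the same exact test. These 9 ratios share Hoxb13 and are not independent.

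The thoracic members Hoxb8, Hoxb7, Hoxb6 and Hoxb5 lie close together, with gaps of 1.31 to 2.31 kb between neighbours. Hoxb8, which besides its axial role is known for its part in the myeloid and microglial lineage, was at 37.6, 42.9, 41.6 and 42.3 CPM in wildtype and at 41.3 and 46.2 CPM in Cdx2P:Nr6a1 libraries. Hoxb7 was at 53.0, 62.3, 56.7 and 55.6 CPM against 62.7 and 58.1 CPM. Hoxb6 was at 54.8, 57.8, 51.2 and 49.6 CPM against 50.9 and 50.7 CPM. The groups overlapped for each of these genes, and the log2 fold changes were 0.09 (95% interval −0.07 to 0.25), 0.08 (−0.07 to 0.24) and −0.07 (−0.22 to 0.08). The intervals reach from −0.22 to 0.25 over these 3 genes. Hoxb5, which acts at the cervico-thoracic level and in the enteric nervous system, was at 15.9, 17.5, 15.8 and 15.8 CPM in wildtype and at 14.3 and 14.4 CPM in Cdx2P:Nr6a1 libraries. Here both transgenic libraries lay just below the lowest wildtype library, and the difference was not called (log2 fold change −0.18, SE 0.09, adjusted p = 0.530, edgeR).

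At the 3′ end, Hoxb4, which is known for its effect on haematopoietic stem cells, was at 42.6, 51.7, 49.5 and 49.0 CPM in wildtype and at 48.8 and 54.0 CPM in Cdx2P:Nr6a1 libraries, with a log2 fold change of 0.09 (95% interval −0.09 to 0.27). Hoxb3, which acts in the hindbrain and neck, was at 46.8, 50.3, 49.8 and 55.0 CPM against 42.1 and 43.0 CPM. The Hoxb3 groups did not overlap, with an unadjusted p of 0.00503 that did not hold over all genes tested (log2 fold change −0.25, SE 0.07, adjusted p = 0.144, edgeR). DESeq2, an alternative count test, called Hoxb3 lower (adjusted p = 0.0411, between 0.0192 and 0.552 over the 17 alternatives). Hoxb2, a hindbrain gene that Hoxb1 activates, was at 14.9, 15.3, 15.9 and 15.6 CPM against 14.6 and 15.9 CPM. Hoxb1, which specifies a single hindbrain segment and the facial motor nucleus but is first expressed in the primitive streak, was at 150, 174, 164 and 153 CPM in wildtype and at 148 and 163 CPM in Cdx2P:Nr6a1 libraries. Both groups overlapped for Hoxb2 and Hoxb1, whose log2 fold changes were −0.02 (95% interval −0.21 to 0.18) and −0.04 (−0.20 to 0.12).

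Per exon length, the levels did not follow the order of the genes along the chromosome. In wildtype, Hoxb9 was highest at 368 ± 35.8 TPM (SD, n = 4), followed by Hoxb13 at 274 ± 35.8 TPM and, from the opposite end of the cluster, Hoxb1 at 239 ± 22.9 TPM. These 3 genes made up 28.3%, 21.1% and 18.4% of the HoxB transcripts on average. Hoxb7 (128 ± 11.8 TPM), Hoxb6 (93.9 ± 7.57 TPM), Hoxb4 (65.0 ± 6.84 TPM) and Hoxb8 (54.0 ± 4.30 TPM) were intermediate. Hoxb3 (41.0 ± 3.01 TPM), Hoxb5 (20.2 ± 1.41 TPM) and Hoxb2 (15.3 ± 0.76 TPM) were lowest, so that the highest and lowest members differed 24.1-fold. The wildtype ranges of neighbours in this order did not overlap, except for those of Hoxb13 and Hoxb1 and of Hoxb4 and Hoxb8.

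Part of this order depends on how overlapping transcripts were counted. Among 481 genes entirely covered by exons of the other strand, 0 exceeded 10 counts summed over all libraries, against 37.5% of the genes sharing no exon base with another gene, so reads in shared exons were assigned to neither gene and the strand of a read was not used. Hoxb3 shares 52.9% of its exon bases with other genes, Hoxb2 27.3% and Hoxb5 3.59%, while the other 7 members share none. With only the unshared bases as length, Hoxb3 was at 83.6 TPM in place of 41.0 and moved from eighth to sixth in the order, and Hoxb2 was at 20.1 TPM in place of 15.3.

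In Cdx2P:Nr6a1 tailbuds Hoxb13 was at 94.4 ± 4.85 TPM (SD, n = 2). It thereby stood below Hoxb1 (232 ± 15.2 TPM) and Hoxb7 (135 ± 8.07 TPM) and made up 9.12% and 8.64% of the HoxB transcripts in the 2 libraries, against 19.4% to 23.9% in wildtype. The summed TPM of the HoxB genes was 1317, 1393, 1296 and 1181 in wildtype and 1073 and 1052 in Cdx2P:Nr6a1 libraries, with both transgenic sums below the wildtype range. Without Hoxb13 the sums were 1002, 1108, 1030 and 952 TPM against 975 and 961 TPM, and the groups overlapped.

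**Figure D2:**
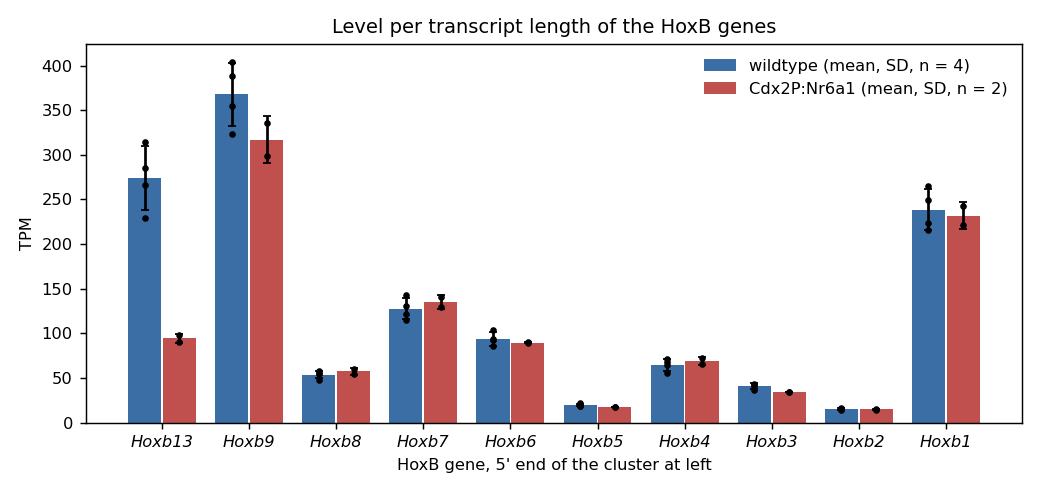
TPM of each HoxB gene in wildtype (blue bars, mean with SD, n = 4) and Cdx2P:Nr6a1 (red bars, mean with SD, n = 2) tailbuds, with 1 black point per library and the genes in their order along the cluster. In wildtype Hoxb9, Hoxb13 and Hoxb1 stand above the rest at 368, 274 and 239 TPM, and Hoxb13 is at 94.4 TPM in the transgenic group.

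The cluster spans 174 kb of chromosome 11 (96194316 to 96368256, GRCm38) and holds 19 genes of the count table, 10 of them the members. The other 9 are non-coding transcripts, antisense transcripts, microRNA genes and a pseudogene. A pair of short minus-strand RNAs of unassigned class, Gm27898 and Gm27605, lies just past the 3′ end of Hoxb13. Gm27605 was at 3.75, 4.79, 4.97 and 3.27 CPM in wildtype and at 2.93 and 1.51 CPM in Cdx2P:Nr6a1 libraries. Its groups did not overlap, and its log2 fold change of −0.95 was not called (SE 0.28, adjusted p = 0.174, edgeR). It moved to −0.52 without Cdx2P:Nr6a1 replicate 2 and to −1.48 without replicate 1 of that group. DESeq2 called it lower (adjusted p = 0.0243, between 1.25e-05 and 0.558 over the 17 alternatives). Gm27898 stayed below the filter, at 1.38 to 2.07 CPM in wildtype and 0.70 to 1.08 CPM in Cdx2P:Nr6a1 libraries. Because the counting ignored strand, reads running on from Hoxb13 would be counted on either, and whether they contribute was not tested.

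In the gap between Hoxb13 and Hoxb9, the long non-coding RNA Gm53 was at 153, 170, 162 and 152 CPM in wildtype and at 172 and 160 CPM in Cdx2P:Nr6a1 libraries (log2 fold change 0.06, 95% interval −0.08 to 0.19). It was abundant and overlapped between the groups, unlike Hoxb13 on its 5′ side. Mir196a-1, the precursor gene of miR-196a, which lies between Gm53 and Hoxb9, was at 9.70, 10.7, 10.3 and 9.97 CPM against 11.7 and 12.3 CPM. Both transgenic libraries lay above the wildtype range, and the difference was not called (log2 fold change 0.24, SE 0.09, adjusted p = 0.332, edgeR). Antisense Hoxb5os (log2 fold change 0.07), Gm11536 (−0.24) and Hoxb3os (0.41, SE 0.16, adjusted p = 0.392, edgeR) were likewise not called. Hoxb3os shares 76.2% of its exon bases with other genes, so that its 3.34 to 6.18 CPM come from the remainder. Gm11539, a pseudogene, and Mir10a did not pass the filter.

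MicroRNAs of the cluster repress Hox messages, and the best-known pair lies within it, miR-196a and Hoxb8. The 2 mature microRNAs encoded in the cluster (RefSeq, GRCm38.p6) are printed 5′ to 3′ with the seed, bases 2 to 8, in capitals, because their host rows were counted here. Pairing with 3′ UTRs was examined for miR-196a only. The seeds differ. Below them is the stretch of the Hoxb8 3′ UTR that pairs best with miR-196a, from the GENCODE M21 transcript, with the bases facing the seed in capitals.
miR-196a-5p (chr11:96265187-96265208, plus strand): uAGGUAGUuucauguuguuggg
miR-10a-5p (chr11:96317186-96317208, plus strand): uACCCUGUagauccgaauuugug
Hoxb8 3′ UTR (chr11:96284888-96284909, plus strand): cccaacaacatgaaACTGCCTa
The Hoxb8 stretch pairs with 21 of the 22 bases of miR-196a by Watson-Crick pairing, all but the microRNA's base 5. Hoxb8 was the only 1 of 20916 genes with a 3′ UTR of sufficient length to hold so close a match, or 0.00478% of them. The other members reached 11 to 14 paired bases. This is a match of letters and was not a measure of repression. Hoxb8 itself did not pass the test in either direction, as given above, and the row Mir196a-1 counts fragments of a precursor in an mRNA library, not the mature microRNA, whose level was not measured.

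Outside the cluster, none of the tested genes within 200 kb was called. On the Hoxb13 side, Igf2bp1, Snf8, Ube2z and Atp5g1 had log2 fold changes between −0.09 and 0.00424, and on the Hoxb1 side Skap1 was at −0.01. The groups overlapped for each of them. Nearer to Hoxb13, Ttll6, Calcoco2 and Gm11535 stayed below 1 CPM in every library and were not tested. Gm11535, the closest row outside the cluster, had 24, 15, 14 and 11 counts in wildtype and 1 and 5 in Cdx2P:Nr6a1 libraries, and Ttll6 had 23, 47, 30 and 12 counts against 10 and 15, with both transgenic libraries below the wildtype CPM range for either gene. The groups of Calcoco2 overlapped. The plot of fold changes by distance places Hoxb13 and Gm27605 at one edge of the cluster, with the tested rows from Gm53 onward between −0.25 and 0.41.

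**Figure D3:**
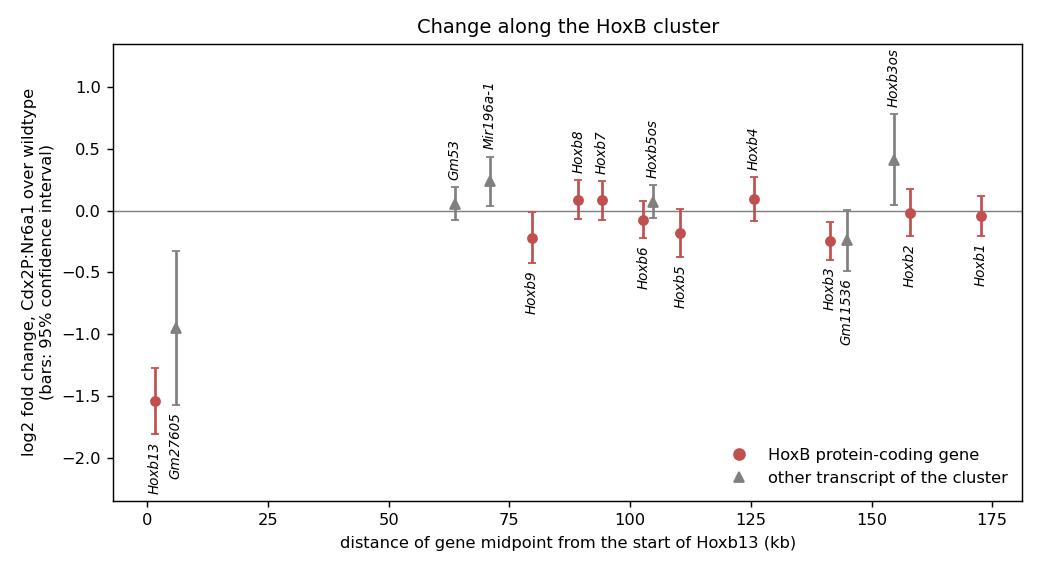
Log2 fold change of Cdx2P:Nr6a1 over wildtype (edgeR, bars are 95% confidence intervals) for each tested row of the cluster, against the distance of its midpoint from the start of Hoxb13 in kb, with HoxB genes as red circles and other transcripts as grey triangles. Hoxb13 at −1.54 and Gm27605 at −0.95 stand at the left edge, and the remaining rows lie between −0.25 and 0.41.

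HoxB genes were next set against their paralogues, the genes of the same number in the HoxA, HoxC and HoxD clusters, to ask whether the cluster responded like the others. Such paralogues numbered 20 here, and 20 of 20 passed the filter. Of these, 2 were called higher (Hoxa9, log2 fold change 0.35, adjusted p = 0.0116, and Hoxc8, 0.49, adjusted p = 0.0266, edgeR) and 3 lower (Hoxc13, −0.91, adjusted p = 0.00131; Hoxd13, −0.77, adjusted p = 0.00121; Hoxa13, −0.65, adjusted p = 0.0131). Over all 12733 genes tested, 100 were called higher and 103 lower, 1.59% together. Hoxb13 thus fell together with the 3 other group 13 genes, and its log2 fold change of −1.54 was further from 0 than theirs. In groups 1 to 9, 17 of the 17 paralogues examined had a positive log2 fold change, with a median of 0.20, and 10 of 17 had both Cdx2P:Nr6a1 libraries above all wildtype libraries. Among all 12733 genes tested, 6326 had a positive log2 fold change, and 18.5% had both transgenic libraries outside the wildtype range in either direction. Of the 9 HoxB genes of these groups, 3 had a positive log2 fold change, with a median of −0.04, and 0 had both transgenic libraries above the wildtype range.

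The ratio of each HoxB gene to its paralogue was taken within every library, which makes the comparison free of scaling. In 16 of 20 pairs, both Cdx2P:Nr6a1 ratios lay below all 4 wildtype ratios, and in 0 pairs above. Single genes left the wildtype range in either direction at the background of 18.5% given above, and no such background was computed for ratios. The difference was negative in 20 of 20 pairs, between −0.88 and −0.02 on the log2 scale. The largest differences were those of Hoxb13, at −0.88 to Hoxa13 (SD of the wildtype ratios 0.14), −0.76 to Hoxd13 (0.26) and −0.62 to Hoxc13 (0.12). The ratios of Hoxb9 to Hoxa9 and to Hoxc9 differed by −0.56 each, with wildtype SDs of 0.17 and 0.23.

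Further down the cluster, Hoxb3 differed by −0.48 from Hoxa3, Hoxb5 by −0.45 from Hoxc5, and Hoxb8 by −0.41 from Hoxc8. The Hoxb5 to Hoxc5 ratio was the tightest of all in wildtype, with an SD of 0.02 (n = 4). The groups overlapped for 4 pairs, Hoxb4 to Hoxa4, Hoxc4 and Hoxd4, and Hoxb8 to Hoxd8. In the exact permutation test, 14 of the 20 pairs reached the smallest possible p of 0.0667 (adjusted p = 0.0953 over the 20 pairs), so that no single pair can pass 0.05 in this design. Pairs share genes and libraries and are not independent, and 8 of the 20 paralogues share exon bases with other genes, where reads were not counted.

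**Figure D4:**
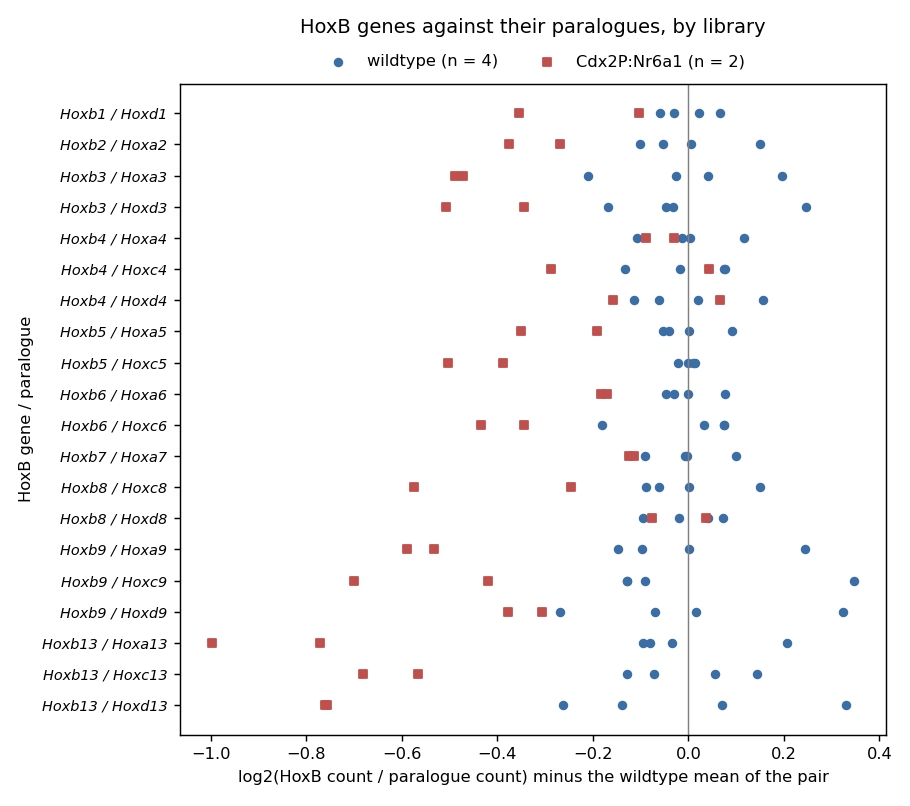
Log2 ratio of HoxB count to paralogue count in each library, minus the wildtype mean of that pair, for 20 pairs with wildtype libraries as blue circles (n = 4) and Cdx2P:Nr6a1 libraries as red squares (n = 2). The red squares lie left of all blue circles in 16 pairs, furthest for Hoxb13 to Hoxa13 at a mean of −0.88, and overlap with them in 4.

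Genes known to act on Hox clusters, and Hox cofactors, were examined in the same libraries. Of 16 regulators 14 were tested, and 2 rose and 2 fell, where 1.59% of all genes tested were called, with a median log2 fold change of 0.05 against −0.00071 over all genes. Cdx2, a caudal homeobox factor that binds Hox clusters and whose regulatory elements drive the transgene, rose from 285 to 306 CPM in wildtype libraries to 407 and 347 CPM (log2 fold change 0.35, adjusted p = 0.0340, edgeR), while its relative Cdx1 fell (−0.60, adjusted p = 0.0313). Aldh1a2, which makes retinoic acid, an inducer of 3′ Hox genes, fell from 14.9 to 20.6 CPM in wildtype to 6.40 and 8.41 CPM (−1.25, adjusted p = 0.00693). Cyp26a1, which degrades it, rose (0.73, adjusted p = 0.0315). Whether these changes bear on the HoxB genes was not tested. Gdf11, the secreted signal of the trunk-to-tail change, was at 362 to 435 CPM in wildtype and 364 and 375 CPM in Cdx2P:Nr6a1 libraries (−0.11, adjusted p = 0.701). Of 9 cofactors of the Pbx, Meis and Pknox families, all of them tested, 1 rose, Pknox2 (0.61, adjusted p = 0.0442), beside the same 1.59%.

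By the Euclidean distance between log2 CPM profiles over the 6 libraries, each centred on its wildtype mean, the genes most like Hoxb13 were Gpr50, Cyp26b1, Krt36, Dapl1 and Tmem35a, at distances of 0.40 to 0.57. Each was called lower. Cyp26b1, a second enzyme that degrades retinoic acid, went from 12.4, 12.5, 9.49 and 9.23 CPM in wildtype to 4.64 and 4.19 CPM (log2 fold change −1.31, SE 0.16, adjusted p = 0.00654, edgeR). Krt36, a hair-type keratin gene, went from 4.57, 2.68, 2.52 and 2.27 CPM to 0.90 and 0.98 CPM (−1.67, SE 0.32, adjusted p = 0.0377). In both, as in Hoxb13, the first wildtype replicate was at or near the top and the last was lowest. Likeness was measured over libraries that include the contrast itself, so that any gene lower in both transgenic libraries tends to score well.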

How the data were processed

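Tailbuds of 4 wildtype and 2 Cdx2P:Nr6a1 embryos were compared, grouped by their labels, with 1 library each. The authors prepared stranded mRNA libraries and aligned reads with STAR to mm10 (per the labels and the submitters' processing notes), and deposited raw counts per gene with exon coordinates and lengths; the counting program, annotation and use of strand are not given in the sources used here. The deposited exon coordinates of the cluster matched GENCODE M21 in 73 of 73 exons. A second table, holding the authors' own fold changes, p-values and CPM, was not used. 0 columns of other samples were present.

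Counts were tested in R 4.3.3 with edgeR 4.0.16 (TMM, quasi-likelihood, no covariates, genes above 10 counts and 2 CPM in 2 libraries), with limma 3.58.1 and DESeq2 1.42.0 as alternatives, and drawn in Python 3.11.15 with pandas 2.3.3 and matplotlib 3.10.9. The SE of a log2 fold change was derived from its F statistic. In simulated counts, 93.9% of 99 genes changed by 1 log2 unit were called, 67% of 100 changed by 0.5, and 14 unchanged genes, of 12655 tested. Ratios were compared by exact permutation over 15 arrangements. P-values measure the spread between embryos.

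The members, lists and tests were chosen with earlier results of these data known. Genes named are the members, other genes in the cluster and named genes within 200 kb, paralogues (1 of which is not reported here, nor counted among them), Nr6a1, the regulator and cofactor lists, the marker lists and the 5 profiles nearest to a called member. The 17 alternatives were 5 other tests or estimates (likelihood ratio, exact, DESeq2, voom, robust), RLE, library size only, filterByExpr, no filter, the replicate number as a block, a Y-chromosome covariate, and each of the 6 libraries left out.

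The marker lists gave these sums of CPM, in wildtype and in Cdx2P:Nr6a1 libraries. The ranges were 1812 to 2071 and 1905 to 2288 for tailbud (2 of 6 called higher), 1058 to 1363 and 1016 to 1211 for presomitic mesoderm (0 of 6 called), 26.6 to 31.9 and 23.4 to 26.8 for somite, 88.2 to 97.5 and 91.7 to 119 for neural tube (2 of 7 called higher), 89.7 to 131 and 110 to 126 for surface ectoderm, 8097 to 19690 and 9722 to 13540 for erythroid cells, 9.72 to 24.6 and 7.51 to 16.5 for macrophages, 159 to 198 and 162 to 207 for endothelium, and 9.72 to 13.6 and 11.3 to 16.2 for head. No marker of the last 5 lists or of somite was called. Over all genes tested, 1.59% were called.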

Additional observations from a re-analysis of the deposited data

Results flagged for a closer look

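Hoxb5 in wildtype replicate 2 was at 17.48 CPM, apart from the other 3 wildtype libraries, of which the nearest was at 15.89 CPM. The gap was 0.936 of the range of the group. It was the only such case in 19 groups examined, and chance sets apart about 1 in 20 groups of this size.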

How the results depend on the processing

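Hoxb13 was called lower under each of the 17 alternatives, with log2 fold changes between −1.68 and −1.46 and an adjusted p of at most 0.0257 (edgeR, without Cdx2P:Nr6a1 replicate 2). No HoxB gene was called higher under any of them. The number of HoxB genes called lower was 2 with DESeq2 (adding Hoxb3, adjusted p = 0.0411), 3 without the filter on low counts (adding Hoxb3, adjusted p = 0.0192, and Hoxb9, 0.0167) and 2 with the replicate block (adding Hoxb9, log2 fold change −0.33, adjusted p = 0.0101, which reached 0.735 over the alternatives). The replicate numbers are shared between the groups by number only, so the replicate block is not a known pairing of embryos. Deviations of same-numbered libraries correlated at 0.317 for number 1 and −0.283 for number 2. These values cannot settle whether there is one, because 2 transgenic libraries always deviate from their mean in opposite directions. Wildtype replicates 3 and 4 have no transgenic library of the same number, so under the block they add nothing to the genotype effect. The 203 genes called in all became 401 by the likelihood ratio test, 391 by the exact test, 477 by DESeq2, 876 without the filter, 442 with the replicate block, 124 with the Y covariate, and 61 to 175 with 1 library left out. It was 61 without either Cdx2P:Nr6a1 library and 134 without wildtype replicate 4. With 1 transgenic library left, that library is assumed to vary like the wildtype group. Hoxb1 changed sign without Cdx2P:Nr6a1 replicate 1 (log2 fold change 0.027, from −0.12 with 1 library left out). Hoxb2 did so with the replicate block (0.013), without wildtype replicate 3 (0.00013) and without Cdx2P:Nr6a1 replicate 1 (0.041, from −0.075), and Hoxb5os without Cdx2P:Nr6a1 replicate 2 (−0.0014, to 0.14). Gm27605 was called by 4 of the 17 alternatives. The cause was not tested. The log2 ratio of Hoxb13 to Hoxb9 stayed between −1.35 and −1.28, and 16 to 18 of 20 paralogue ratios lay below wildtype, with any library left out. Unshared exon bases as length changed the share of HoxB transcripts of Hoxb3 from 3.18% to 6.49%, of Hoxb2 from 1.18% to 1.56% and of Hoxb6 from 7.24% to 6.95%, each by more than its SD.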
